A study of Mus musculus with 71 samples.

Results

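The proteins that coat lipid droplets were followed in 2 mouse adipocyte lines treated with rosiglitazone (RSG), an agonist of the nuclear receptor PPARγ. The genes taken as coat proteins were 6, namely Plin1, Plin2, Plin3, Plin4, Cidec and Cidea, and a probe set belonged to them where the array annotation gave it 1 gene and that gene was on the list. Of the 22626 probe sets of the array, 5 met the rule, 1 each for Plin2 (1448318_at), Plin3 (1416424_at), Plin4 (1418595_at), Cidec (1452260_at) and Cidea (1417956_at). Plin1 had no probe set of its own in that annotation and was not analysed here, so the values below cover 5 of the 6 genes.

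3T3-L1 and C3H/10T1/2 are fibroblast-like mouse lines that turn into adipocytes in culture. 3T3-L1 cells were differentiated with insulin, 3-isobutyl-1-methylxanthine, dexamethasone and 100 nM RSG for 2 days and then without RSG, and C3H/10T1/2 cells with insulin and 10 μM RSG for 6 days, so the controls of both lines had also met the drug. After a washout of 24 hrs in serum-free medium with fatty acid-free albumin, adipocytes of each line received 1 μM RSG or its vehicle DMSO for 1, 2, 4, 7, 24 or 48 hrs. There were 3 arrays, described as biological replicates, in each of the 24 groups, except that 3T3-L1 adipocytes with DMSO for 2 hrs had 2, which gave 35 arrays of 3T3-L1 and 36 of C3H/10T1/2. According to the methods the 3 replicates came from different batches of differentiation. The labels do not say whether a replicate number marks a batch. The line and its differentiation protocol cannot be told apart, and in RNA from whole cultures neither can fewer cells of a type and less RNA per cell.

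Lipid droplets store triglyceride and are covered by proteins that decide which enzymes reach the fat. Perilipins bind the droplet surface: Plin1 is the main one of fat cells and controls access of lipases, Plin2 and Plin3 coat droplets of many cell types, and Plin4 coats small new droplets in adipocytes. Proteins of the CIDE family sit where droplets touch and pass lipid from the smaller to the larger one. Cidec does this in white adipocytes and Cidea is best known from brown adipocytes. Several of these genes are textbook targets of PPARγ.

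Signals were deposited on a scale that gave every array a trimmed mean between 150.05 and 150.07, and a probe set was called present on an array at or above the fixed signal that the methods give as the presence level. Each of the 5 members was present on all 35 and all 36 arrays. The adipocyte markers Adipoq and Fabp4 were present on every array of both lines, at 4490.2 or more, whereas Ucp1, the defining gene of brown fat, and Lep, the leptin gene, were below the presence level on all 71. The 12 measured fibroblast and matrix markers gave summed signals from 13763.7 to 17582.8 on the RSG arrays and from 18248.5 to 22617.5 on the DMSO arrays of 3T3-L1 after 24 hrs, and 15465.6 to 17468.5 against 22252.3 to 22899.1 after 48 hrs. For C3H/10T1/2 the same sum was 9967.7 to 11447.8 against 14439.9 to 17179.2 at 24 hrs and 9630.9 to 10767.3 against 13455.5 to 13943.7 at 48 hrs. The groups did not overlap at either time in either line, which is a description. Of the 12 markers Col1a2 and Col3a1 had the highest medians over all arrays of a line. These were 6874.4 and 3932.3 for 3T3-L1, against 2976.7 and 4435.4 for C3H/10T1/2. With 1 probe set per gene, 4 markers of 12 tested fell after 24 hrs and 7 after 48 hrs in the former line. Beside them 6.97% and then 8.09% of all its probe sets fell. The latter line had 4 fallers of 11 at each time, beside 4.07% and then 2.62% of all. No fibroblast marker rose. The part of this shift in the results at those 2 times was not tested.

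With RSG the 5 coat genes took different courses. Cidec was called higher from 4 hrs on in 3T3-L1 and at 7 hrs in C3H/10T1/2 adipocytes, and Cidea at 24 and 48 hrs in both. Plin2 rose from 4 hrs on in 3T3-L1, with an effect at 24 and 48 hrs that differed from that in C3H/10T1/2, and Plin4 rose at 24 and 48 hrs in 3T3-L1. Plin3 fell, at 7 and 24 hrs in 3T3-L1 and at 7 hrs in C3H/10T1/2. These calls are from fits without a block for the replicate number. With that block Cidec was also called at 4 and 24 hrs, and Plin3 at 4 hrs, in C3H/10T1/2. A member was called where limma's moderated test gave an adjusted p under 0.05 over all probe sets tested in the line, which were 18028 for 3T3-L1 against 16123 for C3H/10T1/2. In 3T3-L1 adipocytes 0 members were called at 1 hr and 0 at 2 hrs, where 0.0666% and 0.172% of all tested probe sets were. The count was then 2 at 4 hrs beside 0.716% of all, 3 at 7 hrs beside 2.04%, 5 at 24 hrs beside 11.8% and 4 at 48 hrs beside 14.3%. The counts for C3H/10T1/2 adipocytes were 0 at 1, 2 and 4 hrs (0.0434%, 0.229% and 0.763% of all), 2 at 7 hrs (2.85%), and 1 each at 24 hrs (7.72%) and 48 hrs (5.41%). Where limma called no member, its unadjusted p was under 0.05 for 0 of them at 1 hr and 1 at 2 hrs in 3T3-L1 adipocytes. For C3H/10T1/2 adipocytes the counts were 0 at 1 hr, 1 at 2 hrs and 3 at 4 hrs. The analysis of variance of the methods, at an unadjusted p under 0.05 and 1.2-fold, selected 0 and then 1 in the former line at these times, and 0, 0 and then 3 in the latter. The limma counts above ignore the replicate number, though arrays of C3H/10T1/2 that share a number passed a check for pairing. With the number as a block limma called 2 members at 4 hrs and 2 at 24 hrs in that line. That fit raised its calls among all probe sets from 123 to 241 and from 1245 to 2036. At 48 hrs the block left the single call and raised those among all probe sets from 873 to 1521.

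**Figure D1:**
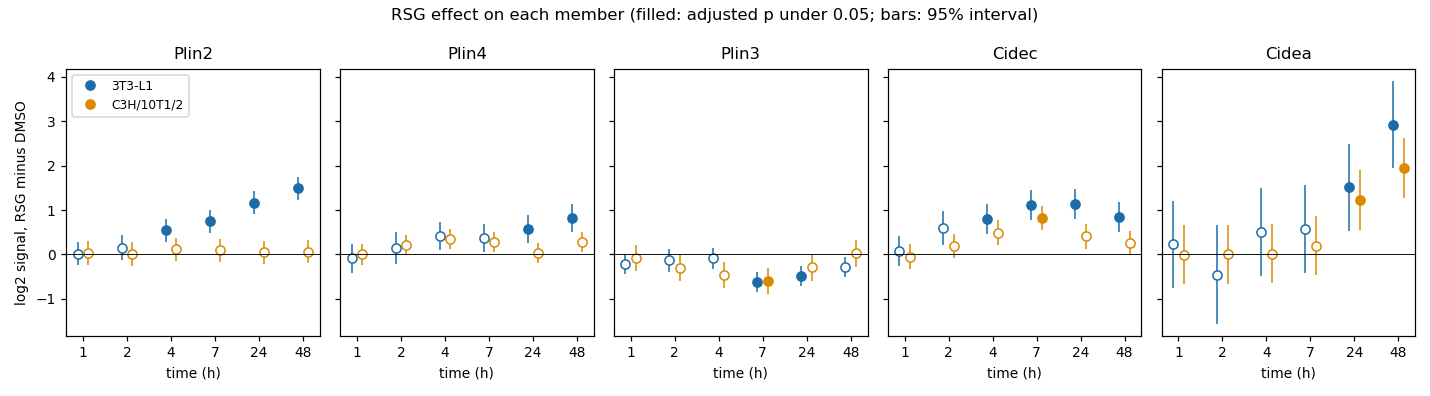
Difference in log2 signal between RSG and DMSO (y axis) at each time in hours (x axis) for the 5 coat genes in 3T3-L1 (blue) and C3H/10T1/2 (orange) adipocytes, from limma, with 95% intervals and filled symbols where the adjusted p was under 0.05. Plin2 climbed to 1.48 in 3T3-L1 at 48 hrs and lay at 0.06 in C3H/10T1/2, while Cidea reached 2.92 and 1.95.

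Plin2, the perilipin found on droplets of nearly all cells, rose with RSG in 3T3-L1 adipocytes, and its RSG effect differed between the lines. Its probe set signals in 3T3-L1 adipocytes at 4 hrs were 2251.4, 2312.5 and 2365.8 with DMSO and 3353.3, 3473.9 and 3263.0 with RSG. At 24 hrs they were 2206.4, 2127.8 and 2443.4 with DMSO and 5012.5, 5756.3 and 4470.5 with RSG. At 48 hrs they were 2219.0, 1777.3 and 1905.1 against 6411.5, 5737.3 and 4471.4. From 4 hrs on every RSG array lay above every DMSO array, whereas at 1 and 2 hrs the groups overlapped. The fitted difference in log2 signal was 0.54 ± 0.13 (SE) at 4 hrs (limma, adjusted p = 0.0289), 0.75 at 7 hrs (0.000561), 1.16 at 24 hrs (1.57e-07) and 1.48 at 48 hrs (7.35e-10), a 2.80-fold higher signal at the last time. The call at 4 hrs was lost when any 1 of the 6 arrays of that time was left out (adjusted p from 0.0742 to 0.135, differences from 0.52 to 0.56).

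The difference at 48 hrs had a part on the control side. With DMSO the Plin2 signal of 3T3-L1 adipocytes was 3268.9, 3348.4 and 2751.2 at 1 hr, and by 48 hrs it had fallen by 0.67 ± 0.13 (SE) in log2 signal (limma, adjusted p = 0.00212). At 24 hrs the difference from 1 hr was -0.46 and did not pass (adjusted p = 0.077), though it did without DMSO replicate 3 of 1 hr (-0.55, 0.0495). It also passed with the replicate block (-0.46, limma, adjusted p = 0.0479) and with quantile normalization (-0.44, 0.0179). Against the RSG arrays of 1 hr, the RSG arrays were higher by 0.68 at 24 hrs (adjusted p = 0.000266) and by 0.80 at 48 hrs (3.24e-05). So the fall under DMSO and the rise under RSG were of like size on the log2 scale at 48 hrs, where all 3 comparisons passed, though these sizes were not tested against each other. Among all probe sets 0.949% and 1.96% were called between DMSO at 24 or 48 hrs and at 1 hr in this line, and 12.9% and 12.1% between the RSG arrays of the same times.

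Plin2 of C3H/10T1/2 adipocytes did not differ detectably between RSG and DMSO at any time. The DMSO signals at 24 hrs were 6138.4, 4918.1 and 6259.9 and the RSG signals 6131.0, 4847.8 and 6977.0, and at 48 hrs 5484.6, 6420.4 and 5298.0 against 5356.2, 6524.5 and 6069.2. The groups overlapped throughout, and the difference was 0.04 at 24 hrs (95% interval -0.22 to 0.31) and 0.06 at 48 hrs (-0.20 to 0.33), which leaves room for a change of up to about the upper bounds. The RSG effect in C3H/10T1/2 minus that in 3T3-L1 was -1.12 ± 0.18 (SE) at 24 hrs (limma, adjusted p = 0.000229) and -1.42 ± 0.18 at 48 hrs (1.78e-06). Plin2 was the 1 member called in this comparison at each of the 2 times, beside 0.257% and 0.848% of all probe sets, and with the replicate block Cidec at 24 hrs (adjusted p = 0.0187) and Cidea at 48 hrs (0.036) were called as well. At 1, 2, 4 and 7 hrs 0 members were called (unadjusted p under 0.05 for 0, 0, 2 and 1 of them), beside 0%, 0%, 0% and 0.0164% of all.

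Plin2 started from a higher signal in C3H/10T1/2. All 18 DMSO arrays of C3H/10T1/2 adipocytes read between 4918.1 and 6743.1, a range that 4 arrays of 3T3-L1 adipocytes reached, all with RSG for 24 or 48 hrs. Of the 118 probe sets of C3H/10T1/2 with a mean DMSO signal of at least 4000, a limit set after the values were seen, 0 rose and 1 fell at 24 hrs, where 3.65% of all probe sets rose and 4.07% fell, and 2 rose and 0 fell at 48 hrs, beside 2.79% and 2.62% of all, with a highest difference in log2 signal of 0.43 and 0.59. In 3T3-L1 adipocytes 6 of 123 rose and 9 fell at 24 hrs, beside 4.79% and 6.97% of all, and 6 of 136 rose and 26 fell at 48 hrs, beside 6.2% and 8.09%, with a highest difference of 0.77 and 1.13, both of Aldoa, an enzyme of glycolysis. The part of signal brightness in the values of Plin2 was not tested.

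**Figure D2:**
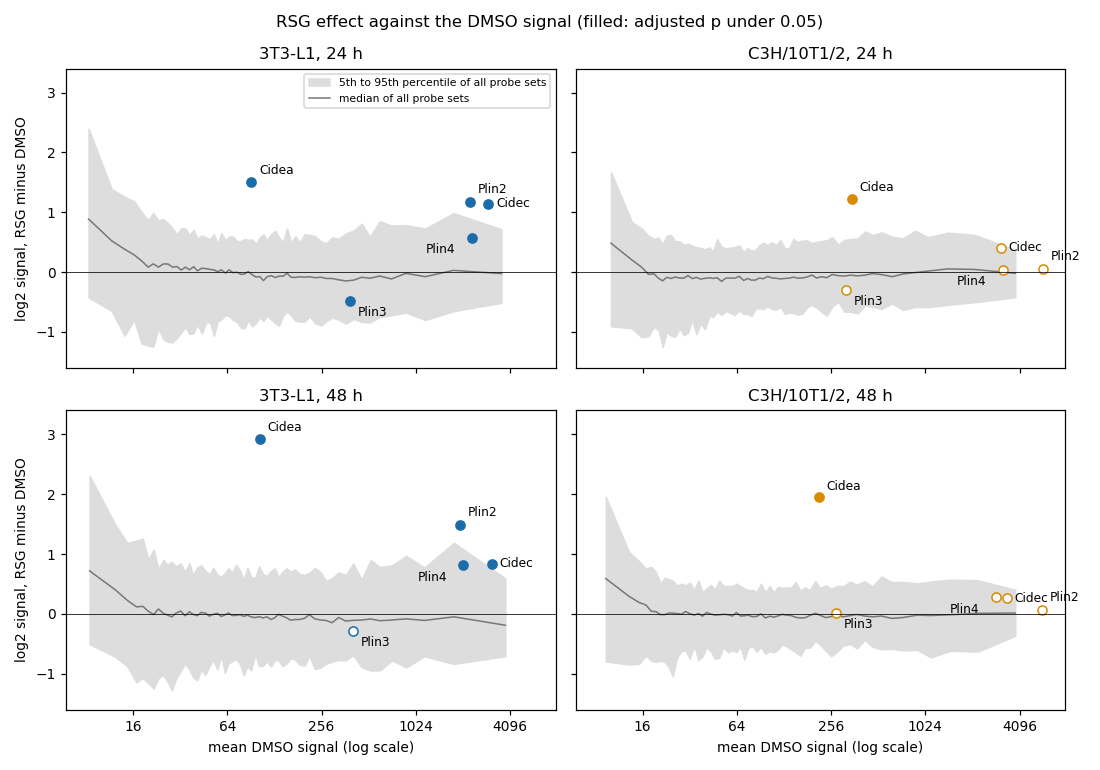
Difference in log2 signal between RSG and DMSO (y axis) against the mean DMSO signal (x axis, log scale) for the 5 coat genes at 24 and 48 hrs in each line. The grey band spans the 5th to 95th percentile and the grey line the median of all tested probe sets in 60 bins of equal size, and filled symbols have an adjusted p under 0.05. Plin2 lay at the bright end in C3H/10T1/2 adipocytes, with a mean DMSO signal of 5772.1 at 24 hrs against 2259.2 in 3T3-L1.

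The start of Plin2 is shown because its RSG effect differed between the lines with and without the replicate block, and those of Plin3 and Plin4 because these 2 perilipin genes of chromosome 17 moved in opposite directions in 3T3-L1. The windows run from 250 bases before to 50 after the RefSeq start, on the gene's own strand, in build GRCm38.p6. Searched on both strands were AGGTCA (the hexamer that nuclear receptors recognise), its direct repeat with 1 base between, which holds that hexamer, CACGTG (an E-box), TATAAA (the TATA box) and CCAAT (the CCAAT box). Capitals mark the matches. A CCAAT box on the opposite strand reads ATTGG.
Plin2 (chr4:86670010-86670309, minus strand): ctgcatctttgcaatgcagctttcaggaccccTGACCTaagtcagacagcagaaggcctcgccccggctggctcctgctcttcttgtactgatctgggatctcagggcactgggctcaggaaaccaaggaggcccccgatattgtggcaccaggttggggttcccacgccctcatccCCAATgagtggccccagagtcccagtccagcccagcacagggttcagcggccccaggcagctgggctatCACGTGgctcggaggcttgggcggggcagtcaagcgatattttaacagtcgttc
Plin4 (chr17:56109733-56110032, minus strand): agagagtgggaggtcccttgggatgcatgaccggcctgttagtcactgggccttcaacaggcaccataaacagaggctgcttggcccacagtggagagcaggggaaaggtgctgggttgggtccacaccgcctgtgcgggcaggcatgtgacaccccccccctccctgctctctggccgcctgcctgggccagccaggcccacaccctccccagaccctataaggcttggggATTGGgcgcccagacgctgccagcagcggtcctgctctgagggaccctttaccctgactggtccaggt
Plin3 (chr17:56290462-56290761, minus strand): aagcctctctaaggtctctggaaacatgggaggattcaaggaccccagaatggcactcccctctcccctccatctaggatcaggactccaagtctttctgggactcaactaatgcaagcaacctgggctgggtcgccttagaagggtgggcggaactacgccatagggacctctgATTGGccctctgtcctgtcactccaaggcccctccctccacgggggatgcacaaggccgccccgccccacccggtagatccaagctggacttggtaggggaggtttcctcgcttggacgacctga
The Plin2 window held the hexamer (as TGACCT, from base -218), CCAAT from base -73 and CACGTG from base -4. Of 32851 RefSeq windows of this length 16.3% held the hexamer, 37.4% CCAAT and 7.15% CACGTG. With at most 2 letters off, the direct repeat was found once in the windows of the measured perilipins and Cidec, in that of Plin2 at base -225 over the same hexamer, and in 3.86% of all windows, whereas the exact repeat was in 0.0396%. Plin3 and Plin4 held CCAAT alone, from base -75 and base -18, TATAAA (13.6% of all windows) was in none of the 3, and both RefSeq starts of Cidec held no match. A match of letters is a description and does not show that a factor binds there.

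Plin4, which coats small droplets of white fat, rose with RSG in 3T3-L1 adipocytes at 24 and 48 hrs. The signals at 24 hrs were 2243.6, 2268.0 and 2484.7 with DMSO and 3490.4, 3629.4 and 3314.4 with RSG, and at 48 hrs 1866.6, 2107.6 and 2198.3 against 3602.7, 4246.5 and 3072.9. Each RSG array lay above each DMSO array at 4, 7, 24 and 48 hrs, a description given without the share of all probe sets so placed. The difference in log2 signal was 0.41 at 4 hrs and 0.37 at 7 hrs, neither called (limma, adjusted p = 0.441 and 0.302), then 0.58 ± 0.16 (SE) at 24 hrs (0.0125) and 0.81 ± 0.16 at 48 hrs (0.000357). Against 1 hr the RSG arrays were higher by 0.94 and 0.99 at 24 and 48 hrs (adjusted p = 6.67e-05 and 2.86e-05), while the DMSO arrays differed by 0.27 and 0.09, neither of them called (0.57 and 0.896). With C3H/10T1/2 adipocytes the RSG signals of Plin4 at 4 hrs, 3445.7, 3477.1 and 3341.3, lay above the DMSO signals of 2577.5, 2620.2 and 2851.5, with a difference of 0.35 (adjusted p = 0.193). At 24 hrs the groups overlapped and the difference was 0.04 (95% interval -0.19 to 0.26), and at 48 hrs 0.28 (adjusted p = 0.173). The difference of the RSG effect between the lines was -0.54 at both 24 and 48 hrs and did not pass (adjusted p = 0.337 and 0.256).

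Plin3, a perilipin that moves between the cytosol and nascent droplets, was the member that fell. In 3T3-L1 adipocytes its signals at 7 hrs were 468.3, 509.6 and 540.5 with DMSO and 314.1, 330.9 and 344.6 with RSG. At 24 hrs they were 347.0, 403.1 and 410.4 against 270.7, 280.4 and 276.5. The groups were apart at both times, with a difference in log2 signal of -0.62 ± 0.11 (SE) at 7 hrs (limma, adjusted p = 0.00118) and -0.48 ± 0.11 at 24 hrs (0.00327). At 48 hrs the RSG arrays read 402.5, 301.3 and 304.1 against 391.4, 401.4 and 422.9, and the difference of -0.28 did not pass (adjusted p = 0.0918). The lack of a call rested on 1 array: without RSG replicate 1, the one at 402.5, the difference was -0.42 and was called (adjusted p = 0.0128). Plin3 also declined in the controls of this line, with differences from 1 hr of -0.56 at 24 hrs and -0.48 at 48 hrs (adjusted p = 0.00729 and 0.0137). Both calls were lost without DMSO replicate 2 of 1 hr (-0.51 and -0.44, adjusted p = 0.0673 and 0.103) and without DMSO replicate 1 of the later time (-0.48 and -0.46, 0.0854 and 0.0688). The RSG arrays of 24 and 48 hrs differed from those of 1 hr by -0.82 and -0.55 (adjusted p = 3.92e-06 and 0.00069).

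The C3H/10T1/2 controls of Plin3 went the other way at first. The DMSO signals were 344.3, 308.0 and 293.7 at 1 hr, 437.6, 455.6 and 433.2 at 4 hrs and 443.1, 399.7 and 518.6 at 7 hrs, while the RSG signals at those times were 324.0, 300.1 and 267.8, then 346.6, 281.9 and 336.2, and 312.4, 251.0 and 346.0. At 4 and 7 hrs the RSG arrays thus lay between 251.0 and 346.6 and the DMSO arrays between 399.7 and 518.6, and the change from 1 hr was not tested at these times. The difference between RSG and DMSO was -0.46 at 4 hrs (limma, adjusted p = 0.172, and 0.0489 with the replicate block) and -0.59 ± 0.14 (SE) at 7 hrs (0.0185). The call at 7 hrs was lost without DMSO replicate 3 (-0.49, adjusted p = 0.142) or RSG replicate 2 (-0.46, 0.132). By 24 hrs the difference was -0.29 (adjusted p = 0.253) and by 48 hrs 0.02 (0.974), with a 95% interval from -0.27 to 0.32.

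The 3 perilipin genes Plin4, Plin5 and Plin3 lie on chromosome 17, with 1648 bases and 0 coding genes between Plin4 (56100587 to 56109948) and Plin5 (56111597 to 56117606), and 161355 bases with 7 coding genes from Plin5 to Plin3 (56278962 to 56290511). Plin5, a perilipin that ties droplets to mitochondria and belongs here to the list of other droplet-associated proteins, was near the presence level in 3T3-L1 adipocytes, with a mean of 24.4 ± 4.68 (SD, n = 3) with RSG and 23.9 ± 4.54 with DMSO at 24 hrs. The C3H/10T1/2 means were 124.1 ± 5.56 against 33.6 ± 7.28, a difference in log2 signal of 1.91 ± 0.22 (SE; limma, adjusted p = 6.48e-07). At 24 hrs these 3 perilipin genes therefore gave differences of 0.58, 0.03 and -0.48 in 3T3-L1 against 0.04, 1.91 and -0.29 in C3H/10T1/2, in the order Plin4, Plin5, Plin3. Plin2 lies on chromosome 4 (86626910 to 86670217), Cidec on chromosome 6 (113424634 to 113435760) and Cidea on chromosome 18 (67343564 to 67367794).

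**Figure D3:**
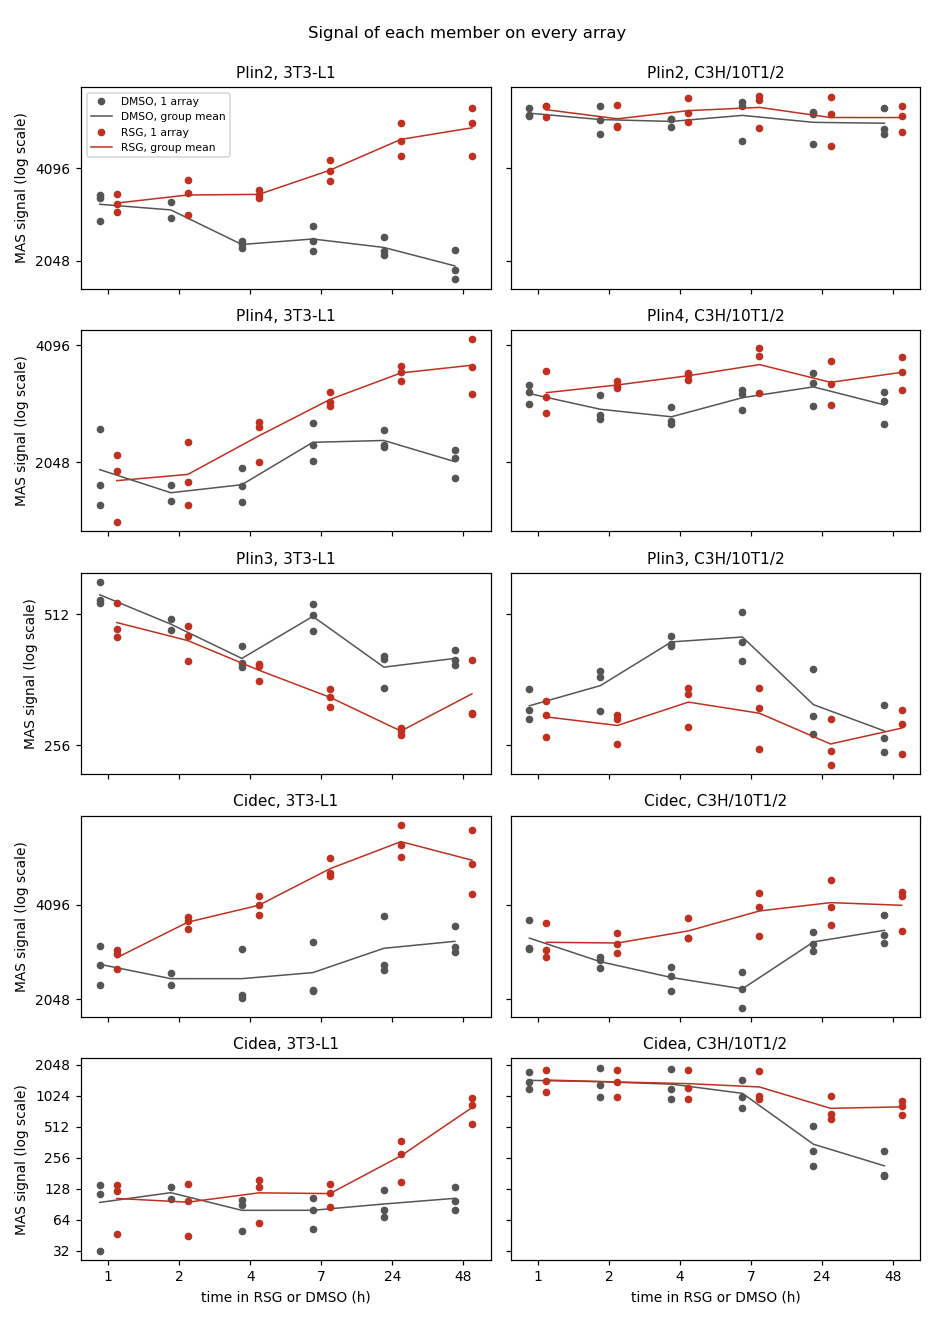
Signal of the 5 coat genes on every array (y axis, log scale) against the time in RSG or DMSO in hours (x axis, evenly spaced), with 1 point per array and lines through the group means, DMSO in grey and RSG in red. Plin2 and Cidec spread apart in 3T3-L1, Plin3 with RSG lay below DMSO at 7 hrs in both lines, and Cidea with DMSO dropped from a mean of 1451.2 at 1 hr to 213.5 at 48 hrs in C3H/10T1/2.

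Cidec, the droplet fusion protein of white fat, rose in both lines. At 2 hrs the RSG arrays of 3T3-L1 adipocytes read 3640.1, 3746.3 and 3426.6 against 2483.5 and 2282.4 on the 2 DMSO arrays. The groups did not overlap, but limma did not call the difference in log2 signal of 0.60 (adjusted p = 0.498). At 7 hrs the values were 5763.2, 5048.6 and 5175.3 against 3107.3, 2179.5 and 2186.5. At 24 hrs they were 7355.3, 6340.6 and 5810.1 against 3759.2, 2628.7 and 2541.2, and at 48 hrs 7059.2, 5523.5 and 4444.9 against 3498.5, 2997.6 and 2900.4. RSG arrays lay above all DMSO arrays at each time from 2 hrs on. The difference was 0.79 ± 0.17 (SE) at 4 hrs (adjusted p = 0.0101), 1.12 at 7 hrs (9.33e-05), 1.14 at 24 hrs (1.16e-05) and 0.84 at 48 hrs (0.000513), and the step from 24 to 48 hrs of -0.31 did not pass its test (0.897). At 4 hrs the call was lost without DMSO replicate 2 (0.72, adjusted p = 0.0959), DMSO replicate 3 (0.70, 0.0982) or RSG replicate 1 (0.74, 0.0733). The RSG arrays were higher than at 1 hr by 1.22 at 24 hrs and 1.01 at 48 hrs (adjusted p = 3.98e-06 and 5.32e-05), and the DMSO arrays differed by 0.16 and 0.25 (0.845 and 0.605).

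Cidec of C3H/10T1/2 adipocytes had its largest difference at 7 hrs and was called there alone without the block. The mean DMSO signal was 3206.9 at 1 hr, 2211.6 at 7 hrs and 3118 at 24 hrs. With RSG the mean was 3110, 3912.8 and 4159 at those times. The DMSO mean at 7 hrs was thus below that at 1 hr, but the change from 1 to 7 hrs was not tested. The values at 7 hrs were 4453.1, 3263.1 and 4022.1 with RSG and 2494.4, 1924.8 and 2215.5 with DMSO, a difference in log2 signal of 0.82 ± 0.14 (SE; limma, adjusted p = 0.000332). At 4 hrs the values 3721.6, 3215.7 and 3205.5 against 2598.9, 2435.4 and 2174.0 gave 0.49 (adjusted p = 0.0917, and 0.045 with the replicate block). At 24 hrs the values 4034.1, 3534.5 and 4908.5 against 3352.7, 2921.6 and 3079.7 gave 0.40 (0.0622, and 0.0358 with the block). The groups were apart at both times. They overlapped at 48 hrs, where the difference was 0.26 (95% interval -0.02 to 0.53). The call at 24 hrs also appeared without RSG replicate 2 (0.52, adjusted p = 0.0306). The RSG effect in C3H/10T1/2 minus that in 3T3-L1 was -0.74 at 24 hrs (limma, adjusted p = 0.16), a difference that was called with the replicate block (0.0187) or without DMSO replicate 1 of 3T3-L1 (-0.92, 0.0381). Against 1 hr the RSG arrays of C3H/10T1/2 differed by 0.41 at 24 hrs (adjusted p = 0.0746, and 0.0401 with the block) and by 0.39 at 48 hrs (0.0874). These 2 differences were called without RSG replicate 1 of 1 hr (0.52 and 0.50, adjusted p = 0.0424 and 0.0475), and also without RSG replicate 2 of 24 hrs (0.53, 0.0376) and RSG replicate 1 of 48 hrs (0.52, 0.0243).

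Cidea, the CIDE protein best known from brown adipocytes, was higher with RSG than with DMSO at 24 and 48 hrs in both lines. The study had already reported Cidea as induced at 24 hrs, 48 hrs or both in the 2 lines, and had measured it by QRT-PCR as well. The level of Cidea with RSG at 48 hrs was above that at 1 hr in 3T3-L1 adipocytes, and not in C3H/10T1/2, where the controls fell. The 3T3-L1 signals at 24 hrs were 68.2, 79.0 and 125.5 with DMSO and 148.9, 280.1 and 373.2 with RSG. At 48 hrs they were 79.7, 97.8 and 132.0 against 543.9, 842.3 and 975.0. The groups were apart at both times and overlapped at 1, 2, 4 and 7 hrs. The difference in log2 signal was 1.51 ± 0.48 (SE) at 24 hrs (limma, adjusted p = 0.0375) and 2.92 ± 0.48 at 48 hrs (5.71e-05), a 7.57-fold higher signal. The call at 24 hrs was lost without DMSO replicate 1 (1.33, adjusted p = 0.125), DMSO replicate 2 (1.43, 0.114), RSG replicate 2 (1.43, 0.104) or RSG replicate 3 (1.22, 0.173), whereas that at 48 hrs was kept without any 1 array. The call at 24 hrs was also lost without a filter or a trend (limma, adjusted p = 0.0524 and 0.0623). With the replicate number as a block, though this line was not taken as paired, its adjusted p was 2.05e-05. Against the RSG arrays of 1 hr those of 48 hrs were higher by 3.04 (adjusted p = 3.24e-05), while the DMSO arrays of 48 hrs differed from those of 1 hr by 0.35 (0.866). The RSG arrays of 24 hrs were higher than those of 1 hr by 1.43 (adjusted p = 0.0469), a call lost without RSG replicate 1 or 2 of 1 hr (0.93 and 1.63, adjusted p = 0.303 and 0.0516) or RSG replicate 2 or 3 of 24 hrs (1.35 and 1.14, 0.123 and 0.2).

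The C3H/10T1/2 controls of Cidea fell with time. The DMSO signals of Cidea were 1203.6, 1398.1 and 1751.8 at 1 hr, 213.5, 300.3 and 526.8 at 24 hrs, and 168.3, 172.9 and 299.2 at 48 hrs. The RSG signals were 1113.4, 1424.0 and 1844.5 at 1 hr, 681.3, 615.7 and 1027.6 at 24 hrs, and 810.2, 673.9 and 917.0 at 48 hrs. Every DMSO array at 24 or 48 hrs was below every array at 1 hr, and the RSG arrays lay between. Under DMSO the log2 signal fell by 2.15 ± 0.33 (SE) at 24 hrs and by 2.80 ± 0.33 at 48 hrs (limma, adjusted p = 2.1e-05 and 2.45e-07). Cidea was the 1 member called in these 2 comparisons, beside 11.8% and 10.2% of all probe sets. With RSG the differences from 1 hr were -0.92 and -0.85, not called without the block (adjusted p = 0.112 and 0.135) and called with it (1.4e-05 and 3.86e-05), where 4.92% and 6.27% of all probe sets were called without it. RSG against DMSO gave 1.22 ± 0.33 at 24 hrs (adjusted p = 0.0165) and 1.95 ± 0.33 at 48 hrs (0.000199), a 2.34-fold and a 3.86-fold higher signal. The call at 24 hrs was lost without DMSO replicate 1 (0.93, adjusted p = 0.133), DMSO replicate 2 (1.17, 0.0627) or RSG replicate 3 (1.00, 0.0998). The effect in C3H/10T1/2 minus that in 3T3-L1 was -0.28 at 24 hrs and -0.97 at 48 hrs, neither called (adjusted p = 0.944 and 0.696), the second called with the block (0.036).

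Cidea signals differed by replicate number. In 3T3-L1 adipocytes replicate 1 had the lowest Cidea signal in 11 of 11 groups of 3 arrays and replicate 3 the highest in 9, and in C3H/10T1/2 replicate 1 was lowest in 10 of 12 groups and replicate 3 highest in 12. For Plin3 replicate 1 was lowest in 9 of 11 groups of 3T3-L1 and 0 of 12 of C3H/10T1/2, for Plin4 in 3 of 11 and 5 of 12, for Plin2 in 5 of 11 and 3 of 12, and for Cidec in 0 of 11 and 2 of 12. The ratio of RSG to DMSO within a replicate number was 6.82, 8.61 and 7.39 for Cidea in 3T3-L1 at 48 hrs, and 4.81, 3.90 and 3.06 in C3H/10T1/2. The RSG array was above its DMSO array in all 6 of these pairs, as any matching of arrays would give, because the groups did not overlap. With the number as a block the standard error of the Cidea effect in C3H/10T1/2 was 0.13 in place of 0.33. With the block the RSG effect of 1.22 at 24 hrs there also exceeded that of 0.02 at 4 hrs (limma, adjusted p = 0.000263, and 0.275 without the block).

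**Figure D4:**
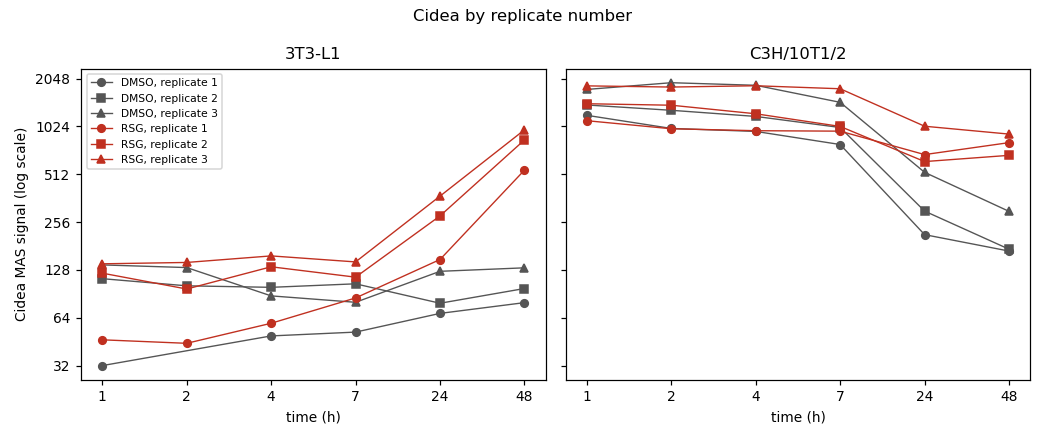
Cidea signal (y axis, log scale) against time in hours (x axis, evenly spaced) with 1 line per treatment and replicate number, DMSO in grey and RSG in red. Arrays of 1 number stayed high or low together, and all RSG arrays lay above all DMSO arrays at 24 and 48 hrs in both lines.

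Whether an effect at 24 hrs differed from that at 4 hrs, and at 48 hrs from 24 hrs, was tested within each line. Without a block 0 members passed the first test in 3T3-L1 (unadjusted p under 0.05 for 2 of them) and 0 in C3H/10T1/2 (1 of them), beside 1.71% and 1.03% of all probe sets. The second gave 0 and 0 members (unadjusted p under 0.05 for 1 and 0), beside 0.0832% and 0% of all. The lowest adjusted p was that of Plin2 in 3T3-L1, whose effect at 24 hrs was larger than at 4 hrs by 0.62 ± 0.18 (SE; limma, adjusted p = 0.0743). It passed without RSG replicate 3 of 24 hrs (0.71, adjusted p = 0.0466), with the replicate block (0.62, 0.0476) and with quantile normalization (0.53, 0.0477).

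With DMSO 4 of the 5 coat genes were called different between the lines, a share close to the 77.5% of all probe sets that were. Over the 6 DMSO groups of each line the log2 signal in C3H/10T1/2 minus that in 3T3-L1 was 3.08 ± 0.18 (SE) for Cidea, 1.25 ± 0.05 for Plin2 and 0.55 ± 0.06 for Plin4, and -0.37 ± 0.05 for Plin3 (limma, adjusted p = 3.13e-22, 3.96e-28, 1.65e-12 and 1.1e-08). Cidec differed by 0.09 ± 0.06 (adjusted p = 0.201, 95% interval -0.04 to 0.22). Among all probe sets 4095 were called higher and 10066 lower, around a median of -0.32. With quantile normalization over all 71 arrays the calls were 5509 higher and 6566 lower around a median of -0.08. Relative to those medians Plin2 was higher by 1.58 and 1.29, Plin4 by 0.87 and 0.46 and Cidea by 3.41 and 3.27, while Plin3 differed by -0.05 and -0.32 and Cidec by 0.41 and 0.03. Cidec without regard to the median was -0.05 after quantile normalization, on the other side of 0. The gap in Cidea narrowed with time: the mean DMSO signal was 94.2 in 3T3-L1 against 1451.2 in C3H/10T1/2 after 1 hr, and 103.2 against 213.5 after 48 hrs. The 6 other brown adipocyte markers measured had summed signals from 341.8 to 400.7 in 3T3-L1 against 2810.1 to 2919.0 in C3H/10T1/2 after 1 hr of DMSO. The sum was carried by Cox8b and Cox7a1, subunits of the respiratory chain, with medians over all arrays of 122.7 and 123.3 in 3T3-L1 against 2010.0 and 565.0 in C3H/10T1/2. Dio2 (57.5 against 33.6) and Ppargc1a (57.1 against 24.4) had the lower medians in C3H/10T1/2, and Ucp1 was below the presence level throughout. That sum in C3H/10T1/2 was 1997.5 to 2115.3 with DMSO and 3011.2 to 4166.4 with RSG at 48 hrs, and in 3T3-L1 it was 314.5 to 518.8 and 1123.3 to 1470.4.

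The wider lipid droplet list, the coat genes left out, held more probe sets that rose than that fell in both lines. It also takes in genes of fatty acid supply and transcription factors of fat cells. It was chosen with earlier results of these data known, and the study had already reported some of its genes, such as Lipe, Pnpla2, Ppara and Ppargc1b, as induced. Its share of risers is therefore a description. The list held 54 genes, of which 46 were on the array with 88 tested probe sets for 3T3-L1 against 82 for C3H/10T1/2. After 24 hrs RSG raised 26 of them and lowered 8 in 3T3-L1, with a median difference in log2 signal of 0.34, where 4.79% of all probe sets rose and 6.97% fell around a median of -0.01. At 48 hrs 25 rose and 4 fell (median 0.36), beside 6.2% and 8.09% of all (-0.03). For C3H/10T1/2 16 rose and 2 fell at 24 hrs (median 0.14), beside 3.65% and 4.07% of all (-0.07), and 10 rose and 2 fell at 48 hrs (0.12), beside 2.79% and 2.62% (-0.01).

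By role, the lipolysis genes, which free fatty acids from the droplet, gave 9 risers of 12 probe sets in 3T3-L1 at 24 hrs and 1 of 12 in C3H/10T1/2. The triglyceride synthesis genes gave 4 and 1 of 9. Genes of droplet assembly and lipid transfer gave 0 of 14 and 2 of 13, and those of fatty acid supply 4 and 2 of 9. None of these 4 groups had a probe set that fell at 24 hrs. Among the other droplet-associated proteins 4 rose and 6 fell of 26 in 3T3-L1, and 6 rose and 1 fell of 25 in C3H/10T1/2. Transcription factors of fat cells gave 5 risers and 2 fallers of 18, and 4 and 1 of 14. With 1 probe set per gene, 5 and 1 of 7 lipolysis genes and 3 and 1 of 5 triglyceride synthesis genes rose at 24 hrs. So did 0 of 6 and 1 of 5 assembly genes, and 1 and 1 of 3 fatty acid supply genes. Of the 15 other droplet-associated proteins 3 rose and 3 fell in 3T3-L1, and 5 rose and 1 fell in C3H/10T1/2. Of 10 transcription factors 4 rose and 2 fell, and 3 rose and 1 fell. At 7 hrs the order of the lines was not the same in every group. Probe sets of lipolysis genes that rose numbered 6 in 3T3-L1 against 2 in C3H/10T1/2. Those of triglyceride synthesis genes numbered 1 against 4 and those of fatty acid supply 3 against 4, where 1.22% and 1.65% of all probe sets rose. With 1 probe set per gene the 3 groups gave 4 against 0 of 7 genes, 1 against 3 of 5, and 0 against 1 of 3. These differences between the lines were not tested.

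Named by rule from that list, Clstn3 (calsyntenin 3) showed the largest rise in 3T3-L1 adipocytes among genes whose DMSO mean reached the presence level, which leaves out Ppara (below), from 144.6 ± 34.1 (SD, n = 3) to 499.0 ± 46.8 at 24 hrs and from 145.5 to 596.5 at 48 hrs, 1.81 and 2.05 in log2 signal (limma, adjusted p = 8.84e-07 and 4.43e-08). Mgll, which splits the last acyl chain off glycerol, rose by 1.50 at 24 hrs (3.58e-06), and Nsdhl, an enzyme of sterol synthesis that can sit on droplets, by 1.01 at 48 hrs (0.000127). Pparg, the receptor of RSG itself, fell by 1.03 at 24 hrs and by 0.83 at 48 hrs on the log2 scale in this line (adjusted p = 7.88e-05 and 0.000823), and its partner Rxra by 0.60 and 0.81 (0.0219 and 0.00148). Aup1, a droplet protein of the ubiquitin system, fell by 0.89 at 24 hrs (0.0149), and Hsd17b11, a droplet-bound dehydrogenase, by 0.38 at 48 hrs (0.0213).

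Plin5 in C3H/10T1/2 adipocytes rose by 1.91 at 24 hrs and 1.96 at 48 hrs (limma, adjusted p = 6.48e-07 and 3.83e-07), and Hilpda, an inhibitor of the main triglyceride lipase, by 1.24 and 1.06 (0.000586 and 0.00345). Cav1, the caveolin of the plasma membrane, fell by 0.63 and 1.14 (0.00186 and 5.57e-07). Rxra fell by 0.74 at 24 hrs (0.00228), and Pparg by 0.61 at 48 hrs (0.00108). Ppara, a receptor related to PPARγ, was below the presence level in the mean of each DMSO group named here, so no fold is given: with RSG it read 30.2 ± 15.0 (SD, n = 3) after 24 hrs and 30.2 ± 15.3 after 48 hrs in 3T3-L1 adipocytes, against 64.9 ± 5.89 and 50.8 ± 13.2 in C3H/10T1/2, and it was called in all 4 comparisons.

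**Figure D5:**
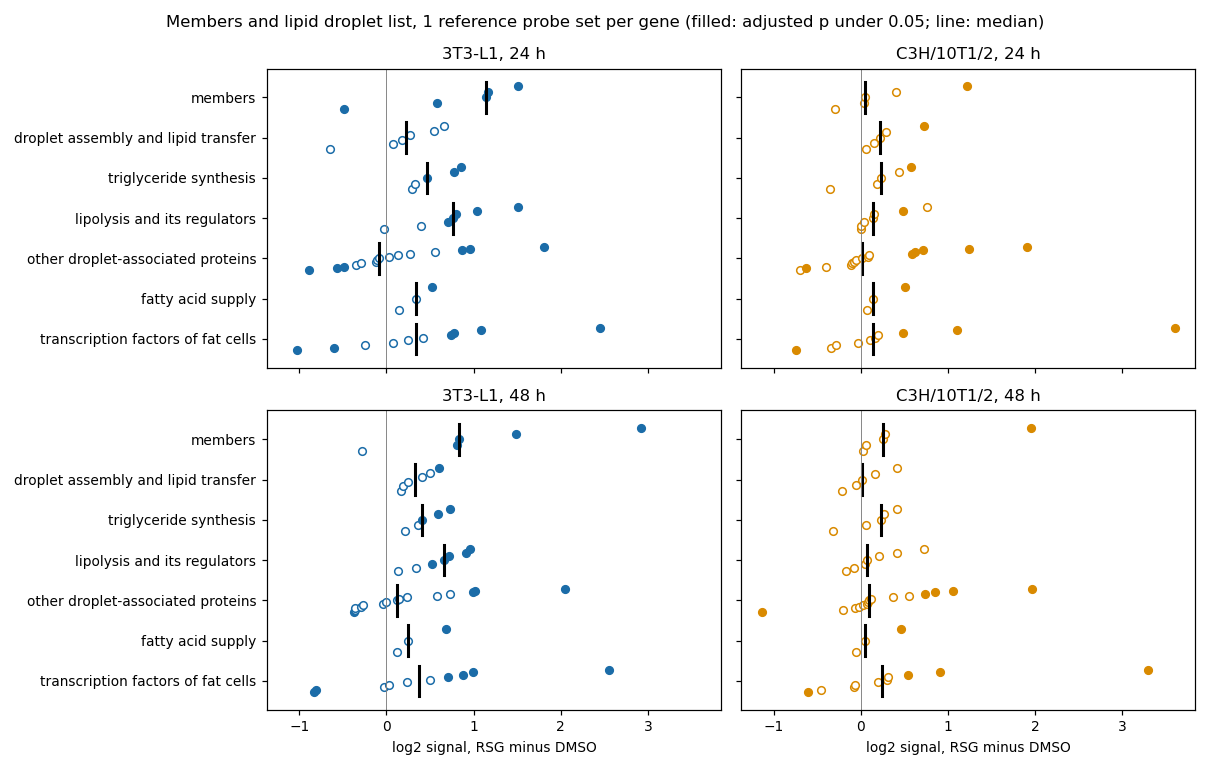
Difference in log2 signal between RSG and DMSO (x axis) of the 5 coat genes (members) and of the lipid droplet list by role, at 24 and 48 hrs in each line, with 1 point per gene on its reference probe set, filled where the adjusted p was under 0.05, and a bar at the median of the row. In 3T3-L1 adipocytes at 24 hrs 16 of 46 list genes rose and 5 fell, as did 12 and 2 of the 45 tested in C3H/10T1/2.

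Likeness of pattern was described across the 24 group means of log2 signal, after the mean of each line was removed, over 9310 genes. The groups share arrays of a line and a treatment scheme, so the coefficients are descriptions. The genes nearest to Cidec were Pex16 (r = 0.985), Fgfrl1 (0.959) and Pex14 (0.944), and those nearest to Plin2 were Acot8 (0.915), Fabp5 (0.886) and Maff (0.885). Cidea was followed most closely by Lonp1 (0.934), Acaa2 (0.919) and Ghitm (0.912), and Plin4 by Tmem199 (0.914), Tmem245 (0.905) and Lrrc59 (0.899). Plin3 was nearest to Pld2 (0.894), Gnpda1 (0.876) and Vim (0.876). Among the members themselves the coefficient was 0.853 between Cidec and Plin4, 0.726 between Cidec and Plin2, 0.692 between Plin2 and Plin4 and 0.379 between Cidec and Cidea, and -0.849 between Cidec and Plin3.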

How the data were processed

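The authors deposited 1 table of signal intensity for 71 Affymetrix 430A arrays, computed from scanned cRNA hybridizations with MAS5, corrected for background, on a linear scale and scaled to a common target. No scanner files were used here. After 64 control probe sets were set aside, 22626 remained, of which 20380 had 1 gene in the platform annotation, 691 several and 1555 none. The 132 values of 0 were set to 0.1 before log2, and the values were not normalized again. MAS signals of different probe sets are not on a common scale, so levels of single genes were not compared with each other, and sums over marker genes serve to compare groups of arrays.

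Probe sets were tested in a line if any of its 12 groups had a mean at or above the presence level of the methods. Log2 signals were fitted with limma 3.58.1 (lmFit, eBayes with an intensity trend) in R 4.3.3, with 1 mean per group and no covariate, for each line and, for differences between lines, over all 71 arrays (18274 probe sets tested in either line). P values are two-sided and adjusted by Benjamini and Hochberg over all probe sets tested in a comparison. The comparison of RSG arrays at 24 and 48 hrs with those at 1 hr was added after the data were seen. Comparisons that share DMSO arrays are not independent. The number of arrays limits the precision. Groups of so few arrays can lie apart without an effect, and the share of all probe sets that did was not counted. Statements that groups were apart are therefore descriptions. The fits were tested on simulated data with known changes. Tables and figures were made with Python 3.11.15, pandas 2.3.3 and matplotlib 3.10.9.

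Members and lists were chosen with earlier results of these data known. All members are named. From the lipid droplet list up to 3 genes with the largest rise and 3 with the largest fall were named in each line at 24 and 48 hrs, on the probe set with the highest mean signal of a gene, among those with an adjusted p under 0.05 and RSG arrays all on 1 side of the DMSO arrays. For likeness the 3 genes with the highest Pearson correlation were named. With each group's mean subtracted, the correlation between the RSG and the DMSO array that share a number was above 0.1 in 18 of 18 pairs of C3H/10T1/2 (0.132 to 0.307), which were taken as paired, and in 14 of 17 pairs of 3T3-L1 (0.0187 to 0.261), which were not. In all 17 pairs of 3T3-L1 the arrays still correlated best with their own number, so this choice rests on the limit of 0.1. In both lines, values given without mention of the block are from fits that ignore the number. Such fits leave out any difference between batches that the numbers may mark. The alternatives were no trend, a floor at the presence level, no filter, only the groups compared, quantile normalization, the analysis of variance of the methods, the replicate number as a block, each array left out in turn, and 1 probe set per list gene.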

Additional observations from a re-analysis of the deposited data

Results flagged for a closer look

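The RSG effect on Plin2 differed between the lines by the test of the difference itself. In C3H/10T1/2 minus 3T3-L1 adipocytes it was -1.12 in log2 signal at 24 hrs and -1.42 at 48 hrs, with RSG above DMSO on all arrays of 3T3-L1 and overlapping groups in C3H/10T1/2. The part of signal brightness, for which values are given with the Plin2 results, was not tested.

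Groups held 2 or 3 arrays, so no array was examined as an outlier within its group.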

How the results depend on the processing

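Of 2285 member values under the alternatives, 2199 stayed on their side of the threshold, 54 lost and 32 gained a call. The sign differed in 86 of the 2199, all uncalled, and in none of those called. Of 481 counts, 424 stayed within 1.5 times. The methods' analysis of variance without adjustment gave 1 member in 3T3-L1 at 2 hrs, and in C3H/10T1/2 3 at 4 hrs and 0 at 24 hrs; adjusted, it called 0 at 4, 7, 24 and 48 hrs in 3T3-L1 and 0 at 7, 24 and 48 hrs in C3H/10T1/2. With only the groups compared the fit called 0 in 3T3-L1 at 4 hrs and 1 in C3H/10T1/2 at 7 hrs, and without the trend 1 in 3T3-L1 at 4 hrs. Quantile normalization gave 2 members for DMSO at 24 hrs against 1 hr and 1 for the effect at 24 minus 4 hrs in 3T3-L1, and in C3H/10T1/2 1 for RSG at 4 hrs, 2 at 24 hrs and 1 each for RSG arrays at 24 and 48 hrs against 1 hr. Without a filter or a trend the 3T3-L1 call of Cidea at 24 hrs was lost (limma, adjusted p = 0.0524 and 0.0623, over all its alternatives from 2.05e-05 to 0.22). The causes were not tested.

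With the replicate block the counts in C3H/10T1/2 were 2 at 4 and 2 at 24 hrs of RSG, 1 for the effect at 24 minus 4 hrs, and 2 and 1 for RSG arrays at 24 and 48 hrs against 1 hr, and 2 members differed between the lines at 24 and 2 at 48 hrs, where Plin2 was joined by Cidec and by Cidea. In 3T3-L1, where 14 of 17 pairs passed the pairing check and each array correlated best with its own number, the block gave 2 for DMSO at 24 hrs against 1 hr and 1 for the effect at 24 minus 4 hrs. It changed no other count of members by over 1.5 times.

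Leaving out 1 array at a time moved the count of members called to 0 to 1 for RSG at 4 hrs and to 4 to 5 at both 24 and 48 hrs in 3T3-L1, and to 1 to 2 at 7 hrs and 0 to 2 at 24 hrs in C3H/10T1/2. For 3T3-L1 it gave 0 to 2 and 1 to 2 for DMSO at 24 and 48 hrs against 1 hr, 4 to 5 for RSG arrays at 24 hrs against 1 hr, and 0 to 1 for 24 minus 4 hrs. For C3H/10T1/2 RSG arrays at 24 and 48 hrs against 1 hr it gave 0 to 1, and for the difference between the lines at 24 hrs 1 to 2.

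Called probe sets among all at 24 and 48 hrs were 2119 and 2575 in 3T3-L1 against 3330 by the unadjusted analysis of variance at 24 hrs, 106 and 70 by the adjusted one and 1228 with only the groups compared at 48 hrs. In C3H/10T1/2 the 1245 and 873 became 2292 and 1798, 5 and 4, 670 and 425, and 2036 and 1521 with the block. With 1 probe set per gene the droplet list had 2, 3, 8 and 16 risers at 2, 4, 7 and 24 hrs and 5 fallers at 24 hrs in 3T3-L1, and 8 risers at 7 hrs in C3H/10T1/2. No member had another probe set. With 3 arrays a group and no block, the 95% interval of an effect on Cidea spanned about 2 log2 units in 3T3-L1. At 48 hrs the standard error of that effect was 0.48 without the block and 0.23 with it.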
